A study of Mus musculus with 4 samples.

Results

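The genes described here are 10 genes of purinergic signalling, the use of ATP and adenosine as messengers between cells, out of 29224 genes in the deposited tables. They were taken by name: Slc17a9 for storage, P2ry1, P2rx4 and P2rx7 for receptors of nucleotides, Adora1, Adora2a and Adora2b for receptors of adenosine, and Entpd2, Nt5e and Adk for breakdown. The members were chosen by their differences between Ezh2 f/f and Ezh2 cKO in these same libraries, so their values are given as a description, without a test. All 10 had a row in the tables and all 10 passed the filter on low counts.

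RNA was sequenced from cortical astrocytes of mice at P5, which were isolated by magnetic beads carrying an antibody to GLAST. The Ezh2 f/f mice carry floxed alleles of Ezh2, the methyltransferase of the Polycomb repressive complex that places H3K27me3, and the Ezh2 cKO mice carry the same floxed alleles together with Aldh1l1-icre. Aldh1l1 is an astrocyte gene, so the deletion is expected where its promoter is active. Which of the cells that pass the beads kept Ezh2 was not measured. There were 2 libraries for each genotype, with no statement of how many animals went into a library or whether the libraries came from separate animals, so p-values measure the spread between these libraries, which may be technical.

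Total counts lay between 16273308 and 17522152 per library, where 3 counts, the limit that a count of 0 allows, equal 0.170 to 0.191 CPM. CPM are counts scaled to a common library size after TMM scaling, and FPKM are the deposited values that also divide by gene length. Floors cover counting error only, while SE come from the edgeR fit and also hold the spread between libraries. Ezh2 itself was counted 434 and 327 times in Ezh2 f/f against 211 and 164 times in Ezh2 cKO, for a log2 fold change of -1.11 ± 0.16 (SE, n = 2 per group, edgeR adjusted p = 3.26e-05), in the direction of the labels. The labelled cell type was set beside a list of 10 astrocyte genes, with 8 of 10 called higher and 0 called lower in Ezh2 cKO. Such calls compare the groups and do not show which cells a library held. The summed level of the astrocyte genes was 609 and 664 CPM in Ezh2 f/f against 3190 and 2890 CPM in Ezh2 cKO. Over all genes tested, 34.7% were called higher and 33.6% lower, shares that stand beside every marker list below. A list of 10 neuron genes summed to 6900 and 7390 CPM and to 8620 and 8610 CPM, above the astrocyte list in all 4 libraries.

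Cells release ATP from vesicles and through channels, and enzymes on the cell surface break it down step by step to ADP, AMP and adenosine. ATP and ADP act on P2X receptors, which are cation channels, and on P2Y receptors, which couple to G proteins, while adenosine acts on receptors of its own. Astrocytes are known to release ATP, to respond to it with calcium signals, and to remove adenosine by uptake followed by phosphorylation.

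To show what kind of start sites these genes have, the bases before the start were taken from the RefSeq promoter table on GRCm38.p6, which holds 11 start sites of 8 of the 10 genes and none for Slc17a9 or Adora2a. The windows run over the 250 bases before the start, 5′ to 3′ on the strand of the gene, with each CG in capitals, since CG-rich promoters are the class on which the Polycomb complex is known to act. The genes printed are Adk and Adora1, with the largest increases among the members that have an entry, Adora2b as a second adenosine receptor, P2rx4, whose level was lower, and P2rx7, whose level overlapped between the groups.

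Adk, second start site listed (chr14:21075902-21076151, plus strand): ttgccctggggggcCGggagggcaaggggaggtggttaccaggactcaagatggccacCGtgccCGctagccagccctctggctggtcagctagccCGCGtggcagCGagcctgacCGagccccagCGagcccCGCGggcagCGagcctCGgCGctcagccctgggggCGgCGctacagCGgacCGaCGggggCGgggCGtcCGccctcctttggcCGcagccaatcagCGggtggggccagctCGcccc
Adora1, first start site listed (chr1:134235458-134235707, minus strand): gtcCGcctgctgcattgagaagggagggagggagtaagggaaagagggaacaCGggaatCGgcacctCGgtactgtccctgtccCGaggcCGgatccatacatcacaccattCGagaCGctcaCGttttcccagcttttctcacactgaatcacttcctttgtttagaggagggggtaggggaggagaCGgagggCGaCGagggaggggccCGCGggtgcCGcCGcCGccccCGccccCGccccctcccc
Adora2b (chr11:62248734-62248983, plus strand): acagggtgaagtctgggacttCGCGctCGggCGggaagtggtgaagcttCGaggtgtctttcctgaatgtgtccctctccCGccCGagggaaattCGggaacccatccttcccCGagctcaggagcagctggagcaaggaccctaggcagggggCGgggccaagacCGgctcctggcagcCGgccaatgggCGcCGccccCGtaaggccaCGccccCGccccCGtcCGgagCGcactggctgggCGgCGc
P2rx4 (chr5:122707294-122707543, plus strand): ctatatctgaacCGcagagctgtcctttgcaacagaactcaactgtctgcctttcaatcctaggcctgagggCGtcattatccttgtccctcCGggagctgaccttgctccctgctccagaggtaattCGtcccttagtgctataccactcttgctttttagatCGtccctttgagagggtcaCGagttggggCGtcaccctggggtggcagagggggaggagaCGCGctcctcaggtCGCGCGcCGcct
P2rx7, first start site listed (chr5:122643677-122643926, plus strand): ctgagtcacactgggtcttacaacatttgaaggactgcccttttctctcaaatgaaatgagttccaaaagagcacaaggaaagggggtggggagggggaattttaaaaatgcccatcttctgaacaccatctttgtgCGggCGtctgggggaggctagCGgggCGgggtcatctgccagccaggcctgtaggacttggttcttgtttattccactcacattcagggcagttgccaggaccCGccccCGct

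The printed window of Adk, from its second start site, held 24 CG, the highest of the 11, and that of its first start site held 15. The printed window of Adora1 held 19 and that of its second start site 18. The window of Adora2b held 22, that of P2rx4 13 and the printed one of P2rx7 6. The median over 32851 promoters in the table was 6.0, and 9 of the 11 windows of these genes were above it. Among the others, P2ry1 had 20 CG, Nt5e 21 and Entpd2 9, and the second start site of P2rx7 had 4, the lowest of the 11. For Adk, Adora1 and P2rx7, which have more than 1 start site listed, the printed window was the one with more CG. The GC box letters GGGCGG, read on both strands and themselves holding a CG, were in 8 of the 11 windows and in 32.7% of all promoters. The letters TATAAA, also read on both strands, were in 0 of the 11 and in 12.4% of all promoters. These matches describe the letters alone. Among the genes with an entry, those whose levels were higher and P2rx4, whose level was lower, had windows above the median. Adora2a, which was higher, and Slc17a9, which was lower, had no entry.

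At an adjusted p under 0.05, 6 of the 10 genes were called higher in Ezh2 cKO, beside 34.7% of all 16793 genes tested, and 2 were called lower, beside 33.6%. The libraries of the groups did not overlap for 9 of the 10 genes, beside 84.3% of all genes. Because the genes were selected on this contrast, nothing is read from these counts. Without the second Ezh2 cKO library, 4 in place of 6 were called higher, with the calls of Adora2b and Nt5e lost. In level, the storage gene, P2rx4 and, by a small step, P2ry1 lay lower in both Ezh2 cKO libraries. The adenosine receptors and breakdown enzymes lay higher in both, and P2rx7 overlapped. This describes the chosen genes only.

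**Figure D1:**
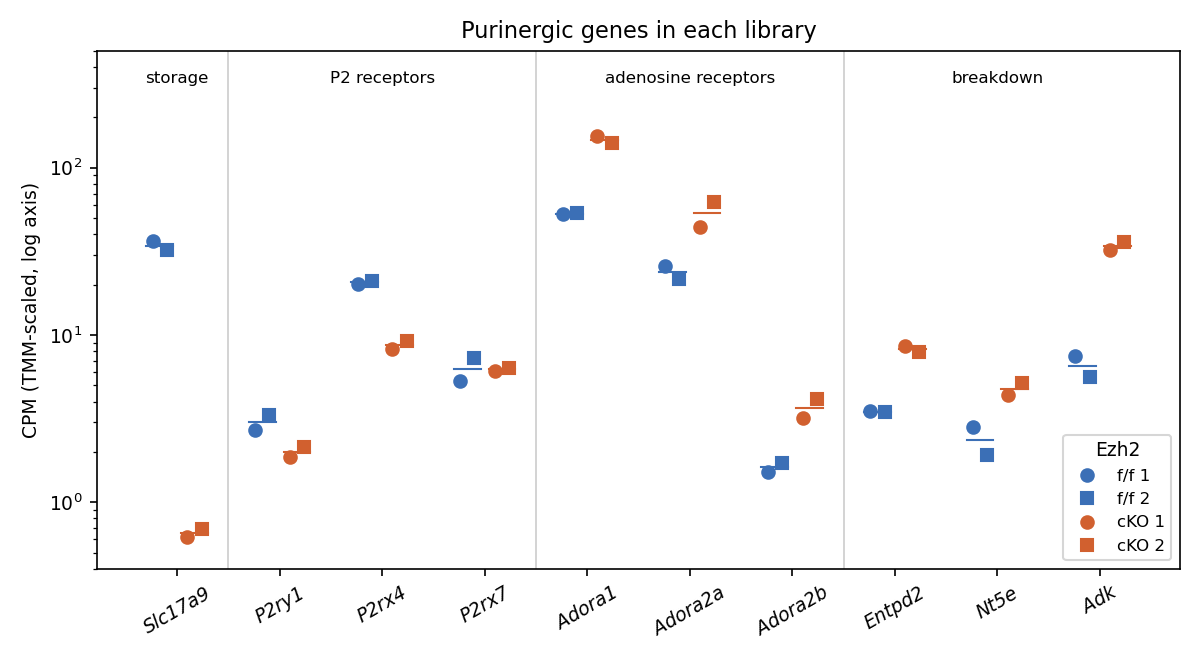
CPM on a log axis for the 10 genes, with 1 point per library, Ezh2 f/f in blue, Ezh2 cKO in orange, and a line at the mean of each group. Slc17a9 lies above 30 CPM in Ezh2 f/f and below 1 CPM in Ezh2 cKO, the adenosine receptors and breakdown enzymes lie higher in Ezh2 cKO, and the points of P2rx7 overlap.

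Slc17a9 (ENSMUSG00000023393, chr2:180367056-180384073 as deposited, plus strand) encodes the vesicular nucleotide transporter, which loads ATP into secretory vesicles. The Ezh2 f/f libraries held 618 and 504 counts and the Ezh2 cKO libraries 11 and 12, or 36.2 and 32.1 against 0.624 and 0.693 CPM. The libraries of each genotype were close to each other and the groups were far apart, with the Ezh2 cKO libraries above the limit of 3 counts. The level was 51.8 times higher in Ezh2 f/f, a log2 fold change of -5.68 ± 0.21 (SE, n = 2 per group). By the size of its fold change Slc17a9 was 74th of the 16793 genes tested, and 0.435% of them had a larger one. In bulk RNA such a difference cannot be told apart from a difference in how many cells of an expressing type were in each preparation.

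The deposited coordinates name no build and are not those of GRCm38, so they are used only to find neighbours. The nearest gene before Slc17a9 differed far less and the one after it was hardly counted. Gid8, 6530 bp before it, was at 51.3 and 51.3 CPM in Ezh2 f/f against 46.3 and 47.4 CPM in Ezh2 cKO (log2 fold change -0.13 ± 0.09 SE, edgeR adjusted p = 0.226). Gm14343, 23934 bp after it, had 1 count in all 4 libraries together.

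The genes whose profile over the 4 libraries was nearest to that of Slc17a9 were Itih4, Crtam and Tigit. The measure was the Euclidean distance between centred log2 CPM, over 15180 genes of at least 1 CPM, and it was 0.106, 0.44 and 0.525. Itih4, a plasma protease inhibitor chain, was counted 166 and 144 times in Ezh2 f/f against 2 and 2 times in Ezh2 cKO. Crtam, an adhesion receptor of lymphocytes, had 118 and 98 counts against 0 and 1. Tigit, an inhibitory receptor of lymphocytes, had 230 and 178 counts against 2 and 5. All 3 genes were at 0 to 5 counts in Ezh2 cKO and far above that in Ezh2 f/f, and the distance rests on only 4 libraries in 2 groups.

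Marker lists of other cell types had lower sums in Ezh2 cKO, where Slc17a9 was lower, and their part in its difference was not tested. A list of choroid plexus and ependymal genes summed to 392 and 774 CPM in Ezh2 f/f against 17.6 and 14.2 CPM in Ezh2 cKO, with 2 of 5 tested genes called higher and 3 lower and no gene at 0 in all libraries. Nearly all of the sum in Ezh2 f/f was Ttr, at 370 and 738 CPM in Ezh2 f/f against 0.284 and 0.693 CPM in Ezh2 cKO. Foxj1 was at 16.2 and 23.1 against 11.6 and 8.6 CPM, and the 2 genes called higher were Kl and Ccdc153. A list of 9 neural progenitor genes, with 8 called lower and 1 higher, summed to 243 and 269 CPM against 129 and 129 CPM, a far smaller difference than that of Slc17a9.

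Among the receptors of nucleotides, P2rx4 was lower in Ezh2 cKO, P2ry1 was lower by a small step, and the libraries of P2rx7 overlapped. P2rx4 (ENSMUSG00000029470, chr5:122845607-122867801 as deposited, plus strand) is an ATP-gated cation channel. Its counts were 346 and 330 in Ezh2 f/f against 146 and 159 in Ezh2 cKO, or 20.3 and 21.0 against 8.28 and 9.18 CPM. Both Ezh2 cKO libraries were below both Ezh2 f/f libraries, with a log2 fold change of -1.24 ± 0.15 (SE, n = 2 per group). P2rx7 (ENSMUSG00000029468, chr5:122781974-122829495, plus strand) is the ATP-gated channel that needs high ATP to open. Its counts were 90 and 115 in Ezh2 f/f against 108 and 110 in Ezh2 cKO, or 5.27 and 7.32 against 6.13 and 6.35 CPM, so both Ezh2 cKO libraries fell between the Ezh2 f/f libraries. The log2 fold change was -0.01 ± 0.21, and its sign changed in 5 of 11 alternative settings, with values from -0.23 to 0.23.

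P2ry1 (ENSMUSG00000027765, chr3:60910216-60916403, plus strand) is a G protein-coupled receptor of ADP. It was counted 46 and 52 times in Ezh2 f/f against 33 and 37 times in Ezh2 cKO, or 2.69 and 3.31 against 1.87 and 2.14 CPM. The groups did not overlap, but the step from the lower Ezh2 f/f library to the higher Ezh2 cKO library was smaller than the gap between the Ezh2 f/f libraries. The log2 fold change was -0.58 ± 0.29 (SE, n = 2 per group), and leaving out single libraries gave -0.72 to -0.44.

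P2rx7 and P2rx4 are next to each other on the same strand, 16112 bp apart in the deposited coordinates. Their FPKM ratio within a library, P2rx4 over P2rx7, was 3.27 and 2.44 in Ezh2 f/f against 1.15 and 1.23 in Ezh2 cKO, so the receptors came close to equal levels in Ezh2 cKO. P2rx4 made up 65.6% and 60.0% of the summed FPKM of the 3 nucleotide receptors in Ezh2 f/f against 44.6% and 45.6% in Ezh2 cKO, and P2rx7 20.1% and 24.6% against 38.9% and 37.1%. The sum itself was 4.28 and 4.82 FPKM in Ezh2 f/f against 2.69 and 2.98 FPKM in Ezh2 cKO.

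The genes on the outer sides of this pair were both higher in Ezh2 cKO. Camkk2, a kinase upstream of AMPK, lies 1432 bp after P2rx4 on the opposite strand and was at 53.8 and 52.3 CPM against 247 and 241 CPM (4.59 times higher, edgeR adjusted p = 2.75e-10). Ift81, a component of the transport machinery of cilia, lies 29393 bp before P2rx7 and was at 7.67 and 7.83 CPM against 16.8 and 19.4 CPM (log2 fold change 1.22 ± 0.16 SE, adjusted p = 1.08e-05). P2rx4 was lower next to a gene that was higher.

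All 3 adenosine receptors were higher in Ezh2 cKO, by factors between 2.25 and 2.77. Adora1 (ENSMUSG00000042429, chr1:134126961-134163169 as deposited, minus strand) encodes the adenosine receptor that lowers cAMP. The Ezh2 f/f libraries had 900 and 845 counts against 2719 and 2432 in Ezh2 cKO, or 52.7 and 53.8 against 154 and 140 CPM. The log2 fold change was 1.47 ± 0.10 (SE, n = 2 per group), the smallest SE among the 10 genes and the one with the most counts behind it.

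Adora2a (ENSMUSG00000020178, chr10:75152711-75170618, plus strand) encodes the adenosine receptor that raises cAMP and is known for its high level in the striatum. Its counts were 439 and 340 in Ezh2 f/f against 783 and 1078 in Ezh2 cKO, or 25.7 and 21.6 against 44.4 and 62.2 CPM. The second Ezh2 cKO library stood above the first, and the log2 fold change of 1.17 ± 0.15 lay between 0.91 without that library and 1.39 without the other. Adora2b (ENSMUSG00000018500, chr11:62139810-62157279, plus strand) encodes the receptor that also raises cAMP but responds to higher adenosine. It was rare, with 26 and 27 counts against 56 and 72, or 1.52 and 1.72 against 3.18 and 4.16 CPM, and a log2 fold change of 1.18 ± 0.29.

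**Figure D2:**
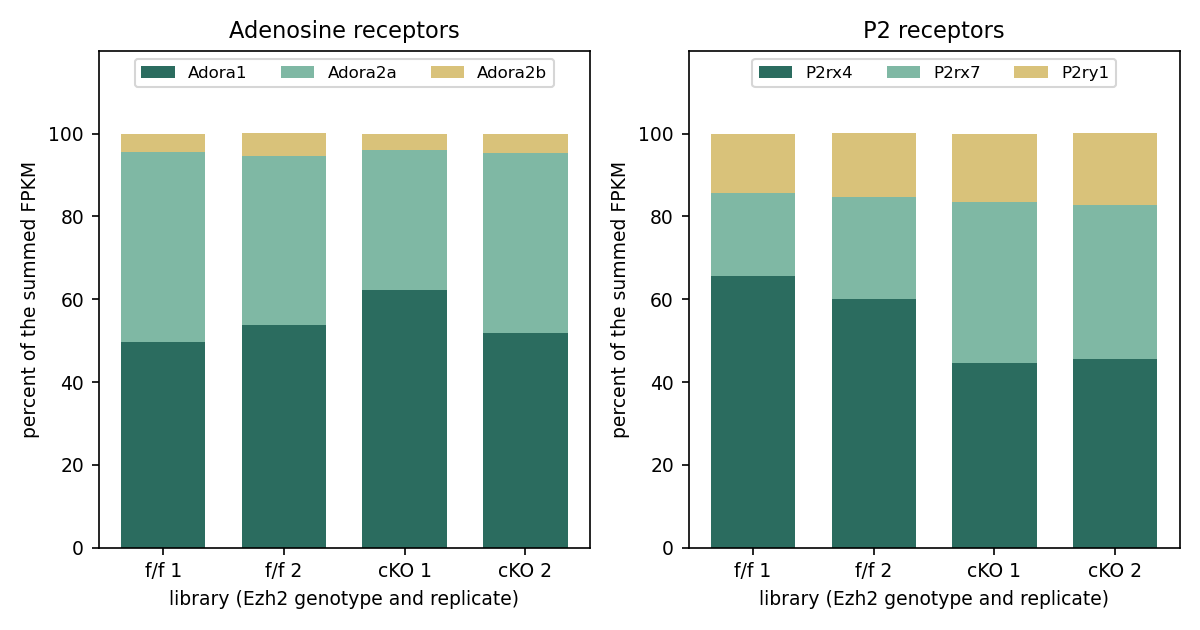
Stacked bars give, for each library, the percent of the summed FPKM taken by each adenosine receptor (left) and by each of P2rx4, P2rx7 and P2ry1 (right). Adora1 takes 49.7% to 62.2% in all 4 libraries, while P2rx4 goes from at least 60.0% in Ezh2 f/f to at most 45.6% in Ezh2 cKO.

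The summed FPKM of the adenosine receptors was 17.9 and 16.7 in Ezh2 f/f against 43.6 and 48.7 in Ezh2 cKO. The makeup of that sum overlapped between the groups. Adora1 took 49.7% and 53.8% in Ezh2 f/f against 62.2% and 51.8% in Ezh2 cKO, Adora2a took 45.8% and 40.9% against 33.8% and 43.4%, and Adora2b took 4.01% to 5.39% in all libraries. The fourth receptor, Adora3, which did not pass the filter, was counted 0 and 2 times in Ezh2 f/f against 13 and 8 times in Ezh2 cKO.

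Marker lists of neurons moved with the adenosine receptors, and their part in the result was not tested. All 10 genes of a striatal neuron list were called higher, 0 were called lower and none was at 0 in all libraries, with a summed level of 352 and 352 CPM in Ezh2 f/f against 790 and 896 CPM in Ezh2 cKO. In that list Adcy5 was at 123 and 141 against 285 and 269 CPM, and Ppp1r1b at 89.3 and 76.8 against 192 and 232 CPM. Of the 10 general neuron genes 9 were called higher and 1, Tubb3, lower, at 3560 and 3670 against 2250 and 2170 CPM, and Stmn2 was at 1210 and 1380 against 1800 and 1790 CPM.

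The 3 breakdown enzymes were higher in Ezh2 cKO, with Adk furthest. Adk (ENSMUSG00000039197, chr14:21102642-21498637 as deposited, plus strand) encodes adenosine kinase, which turns adenosine into AMP inside the cell and is known in mature brain as an enzyme of astrocytes. The Ezh2 f/f libraries held 127 and 88 counts against 567 and 621 in Ezh2 cKO, or 7.44 and 5.60 against 32.2 and 35.8 CPM. The level was 5.22 times higher in Ezh2 cKO, with a log2 fold change of 2.38 ± 0.16 (SE, n = 2 per group), and 6.6% of the genes tested had a larger one. Ap3m1, a subunit of a vesicle adaptor complex, starts 66 bp from Adk on the opposite strand and was at 26.5 and 22.9 CPM against 39.8 and 43.6 CPM (log2 fold change 0.75 ± 0.12 SE, edgeR adjusted p = 5.2e-05). Both genes of this pair were higher in Ezh2 cKO.

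Nt5e (ENSMUSG00000032420, chr9:88209250-88254145, plus strand) encodes CD73, the surface enzyme that makes adenosine from AMP. It was counted 48 and 30 times in Ezh2 f/f against 77 and 90 times in Ezh2 cKO, or 2.81 and 1.91 against 4.37 and 5.19 CPM. The groups did not overlap, and the log2 fold change was 1.01 ± 0.27, the lowest of the 6 higher genes. Entpd2 (ENSMUSG00000015085, chr2:25285886-25291333, plus strand) encodes a surface enzyme that removes phosphate mainly from ATP and leaves ADP. It had 60 and 54 counts against 152 and 137, or 3.51 and 3.44 against 8.62 and 7.91 CPM, with a log2 fold change of 1.25 ± 0.21.

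Entpd2 shares 1971 bp on the same strand with Npdc1, a neural gene with far more reads, so the assignment of reads in that stretch is uncertain. Npdc1 was at 523 and 520 CPM in Ezh2 f/f against 396 and 375 CPM in Ezh2 cKO (log2 fold change -0.44 ± 0.08 SE, edgeR adjusted p = 0.000236), in the opposite direction to Entpd2. Other overlaps were with antisense genes that had almost no reads, Gm37035 at P2ry1 with 1 count in all 4 libraries and Mybph at Adora1 with 0 to 5 counts per library.

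Among the remaining neighbours in the deposited coordinates, Fut7, a fucosyltransferase 21946 bp after Entpd2, was at 8.55 and 8.72 CPM in Ezh2 f/f against 0.284 and 0.289 CPM in Ezh2 cKO, while Sapcd2 before it was at 17.7 and 15.3 against 11.8 and 11.1 CPM (edgeR adjusted p = 1.36e-08 and 0.00716). Entpd2 was higher between these lower genes. Specc1l, 4134 bp before Adora2a, was lower, at 171 and 166 against 73.3 and 72.3 CPM (log2 fold change -1.21 ± 0.09 SE, edgeR adjusted p = 4.4e-08). For the other higher genes the tested neighbours were called higher as well, beside 34.7% of all genes tested. On the log2 scale, Zswim7, 771 bp after Adora2b, gave 0.80 ± 0.20 and Specc1 before Adora2b gave 0.54 ± 0.11. Snx14 after Nt5e gave 0.70 ± 0.14 and Chil1 before Adora1 gave 1.29 ± 0.30. Gm8325 before P2ry1 gave -0.30 ± 0.22 (adjusted p = 0.244), and the neighbours Gm37696, Myog, Gm5779, Gm5066 and U6 had at most 8 counts in a library and were not tested.

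The ratio of Adk to Nt5e FPKM, the enzyme that removes adenosine over the one that makes it outside the cell, was 2.67 and 2.96 in Ezh2 f/f against 7.43 and 6.96 in Ezh2 cKO. The ratio of Entpd2 to Nt5e overlapped, at 5.05 and 7.28 against 7.98 and 6.15. Beside the breakdown enzymes, the astrocyte list described above was higher in both Ezh2 cKO libraries, and the part of this shift in the values of Adk was not tested. Within that list Slc1a2 was at 65.1 and 65.0 against 1020 and 979 CPM and Atp1b2 at 159 and 202 against 523 and 474 CPM, and the 2 genes not called were Aldh1l1 and Sox9, named after their values were seen.

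On the FPKM scale, which allows levels of different genes to be compared, Slc17a9 stood first of the 10 genes in Ezh2 f/f at 10.4 ± 0.950 FPKM (SD, n = 2) and last in Ezh2 cKO at 0.212 ± 0.0187 FPKM. Adora1 was second in Ezh2 f/f at 8.93 ± 0.0687 FPKM and first in Ezh2 cKO at 26.2 ± 1.35 FPKM, followed in each group by Adora2a, at 7.50 ± 0.961 and 17.9 ± 4.49 FPKM. Adk was 8th in Ezh2 f/f at 0.742 ± 0.153 FPKM and 3rd in Ezh2 cKO at 4.10 ± 0.375 FPKM. In Ezh2 f/f the libraries of P2rx7, Adora2b, Adk and P2ry1, which lay from 0.612 to 1.18 FPKM, overlapped from each gene to the next, so their order is not resolved. In Ezh2 cKO the neighbours that overlapped were Adk with Entpd2, from 3.84 to 4.37 FPKM, and Nt5e with P2ry1, from 0.444 to 0.627 FPKM. Relative to all genes in the tables, Slc17a9 was above 83.8% of them in Ezh2 f/f and above 38.5% in Ezh2 cKO, and Adora1 was above 82.1% and 92.6%. The ratio of Slc17a9 to P2rx4, 3.92 and 3.35 in Ezh2 f/f, was 0.165 and 0.166 in Ezh2 cKO.

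**Figure D3:**
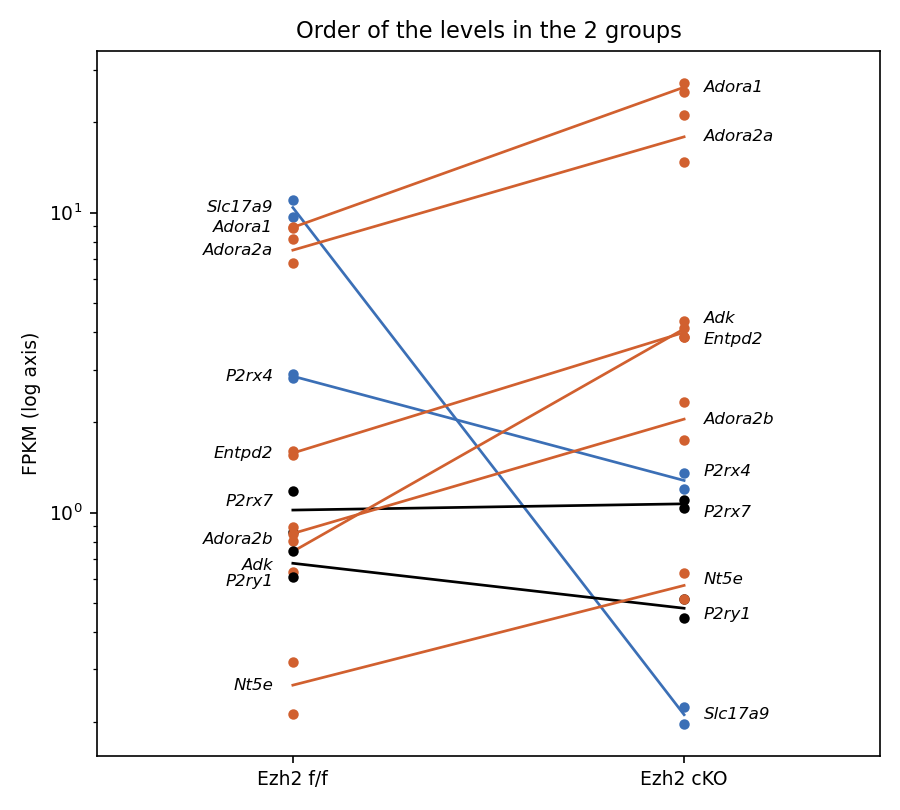
Deposited FPKM of the 10 genes on a log axis, with a point per library and a line joining the group means. Blue genes are lower and orange genes higher in Ezh2 cKO, and black marks P2ry1 and P2rx7. Slc17a9 goes from first to last place and Adk from place 8 to place 3.

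The rest of the pathway was described with 43 further genes in 7 lists, of which 41 had a row and 33 passed the filter. These lists were written from general knowledge, but with earlier results of these data known. Of these 33 genes 14 were called higher and 12 lower in Ezh2 cKO, and 7 were not called, with a median log2 fold change of 0.18 beside 0.02 over all genes tested. These are 42.4% and 36.4% of the 33 genes, beside the 34.7% and 33.6% of all genes given above. The counts of each list below stand beside the same shares of all genes. The libraries of the groups did not overlap for 31 of the 33, or 93.9%, beside 84.3% of all genes.

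Of 6 tested channels known or proposed to release ATP, 4 rose and 2 fell. Gja1, which encodes connexin 43 of astrocyte gap junctions, was at 28.1 and 31.9 CPM against 142 and 141 CPM (log2 fold change 2.24 ± 0.10 SE, n = 2 per group, edgeR adjusted p = 5.75e-10). Panx2 was at 35.9 and 36.7 against 152 and 137 CPM (1.99 ± 0.10, adjusted p = 1.24e-09), while Panx1, the pannexin best known for ATP release, was at 125 and 118 against 65.8 and 64.9 CPM (-0.90 ± 0.09, adjusted p = 1.18e-06). Calhm2 was rare at 0.995 and 0.891 against 2.95 and 3.17 CPM (1.69 ± 0.32, adjusted p = 0.000357). Panx1 and Panx2 went in opposite directions, and the call of Lrrc8a, the other gene that fell, was lost in some alternatives.

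Of 4 tested nucleoside transporters, which carry adenosine across membranes, 2 fell and 0 rose. Slc29a4 was the most expressed, at 122 and 118 FPKM in Ezh2 f/f against 53.2 and 54.2 FPKM in Ezh2 cKO (log2 fold change -1.25 ± 0.08 SE, edgeR adjusted p = 1.78e-08), and it also carries monoamines. Slc29a2 was at 40.0 and 44.5 against 30.6 and 30.4 CPM (-0.47 ± 0.11, adjusted p = 0.00136). Slc29a1, the classical equilibrative transporter, gave -0.21 ± 0.12 (adjusted p = 0.144) and Slc29a3 gave 0.18 ± 0.15 (adjusted p = 0.304).

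Of 4 other P2X receptors tested 2 fell and 0 rose, and of 5 other P2Y receptors 3 rose and 0 fell. P2rx6 was at 21.9 and 16.4 against 7.83 and 7.73 CPM (log2 fold change -1.30 ± 0.17 SE, edgeR adjusted p = 1.39e-05) and P2rx2 at 9.43 and 13.4 against 5.45 and 3.35 CPM (-1.37 ± 0.24, adjusted p = 0.000189). P2rx3 and P2rx5 were near 1 CPM and gave 0.69 ± 0.44 and -0.53 ± 0.40 (adjusted p = 0.180 and 0.255).

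P2ry12, the ADP receptor that marks resting microglia, was counted 7 and 12 times in Ezh2 f/f against 275 and 293 times in Ezh2 cKO (log2 fold change 4.79 ± 0.27 SE, edgeR adjusted p = 2.7e-09). P2ry13, its close relative and neighbour in the genome, had 4 and 9 counts against 225 and 164 (4.78 ± 0.34, adjusted p = 3.03e-08), and 5.51 without the second Ezh2 f/f library. P2ry6, a receptor of UDP, had 23 and 25 counts against 77 and 59 (1.40 ± 0.30, adjusted p = 0.000769), and P2ry14 gave -0.55 ± 0.37 (adjusted p = 0.203). These receptors are known from microglia, and all 8 genes of a microglia list were called higher as well, with 0 lower and none at 0 in all libraries. That list summed to 84.7 and 90.0 CPM in Ezh2 f/f against 275 and 234 CPM in Ezh2 cKO, with Csf1r at 23.8 and 28.1 against 79.1 and 64.2 CPM and C1qb at 22.2 and 22.8 against 48.0 and 40.7 CPM. Its part in the values of the P2Y receptors was not tested.

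Of 6 other enzymes tested that break down nucleotides outside the cell, 3 rose and 2 fell. Entpd1, which encodes CD39 and takes ATP to AMP, was at 6.97 and 7.26 against 14.2 and 13.2 CPM (log2 fold change 0.95 ± 0.16 SE, edgeR adjusted p = 0.000153). Entpd3 was at 4.27 and 4.84 against 8.85 and 10.9 CPM (1.11 ± 0.20, adjusted p = 0.000203), and Alpl, the tissue-nonspecific alkaline phosphatase, at 5.91 and 7.70 against 15.3 and 12.3 CPM (1.02 ± 0.19, adjusted p = 0.000266). Entpd8 was counted 33 and 35 times in Ezh2 f/f against 0 and 0 times in Ezh2 cKO (adjusted p = 4.14e-06), which is at least 12.1-fold lower against a floor of 3 counts in each Ezh2 cKO library. The call of Enpp1, the other gene that fell, was lost in some alternatives. With Entpd8 at its bound the median over the 33 genes was again 0.18. It could not change, since Entpd8 lies below that median either way.

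All 8 tested genes of a list of nucleotidases and adenosine enzymes inside the cell were called. Of these, 4 were higher and 4 lower, beside 34.7% and 33.6% of all genes tested. Nt5c2, a cytosolic nucleotidase, was at 153 and 158 against 61.7 and 66.3 CPM (log2 fold change -1.28 ± 0.09 SE, edgeR adjusted p = 3.77e-08), and Nt5c3, another, at 66.2 and 61.4 against 36.5 and 40.7 CPM (-0.72 ± 0.10, adjusted p = 1.71e-05). Pnp, which cleaves inosine, was at 1.87 and 0.891 against 5.90 and 5.71 CPM (2.05 ± 0.31, adjusted p = 4.27e-05), and gave 2.69 without the first Ezh2 f/f library. Nt5c3b was at 60.2 and 61.5 against 86.2 and 80.3 CPM (0.45 ± 0.09, adjusted p = 0.000703). The cytosolic nucleotidases did not move one way, and the calls of Ahcy, Nt5c and Ada were lost in some alternatives.

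**Figure D4:**
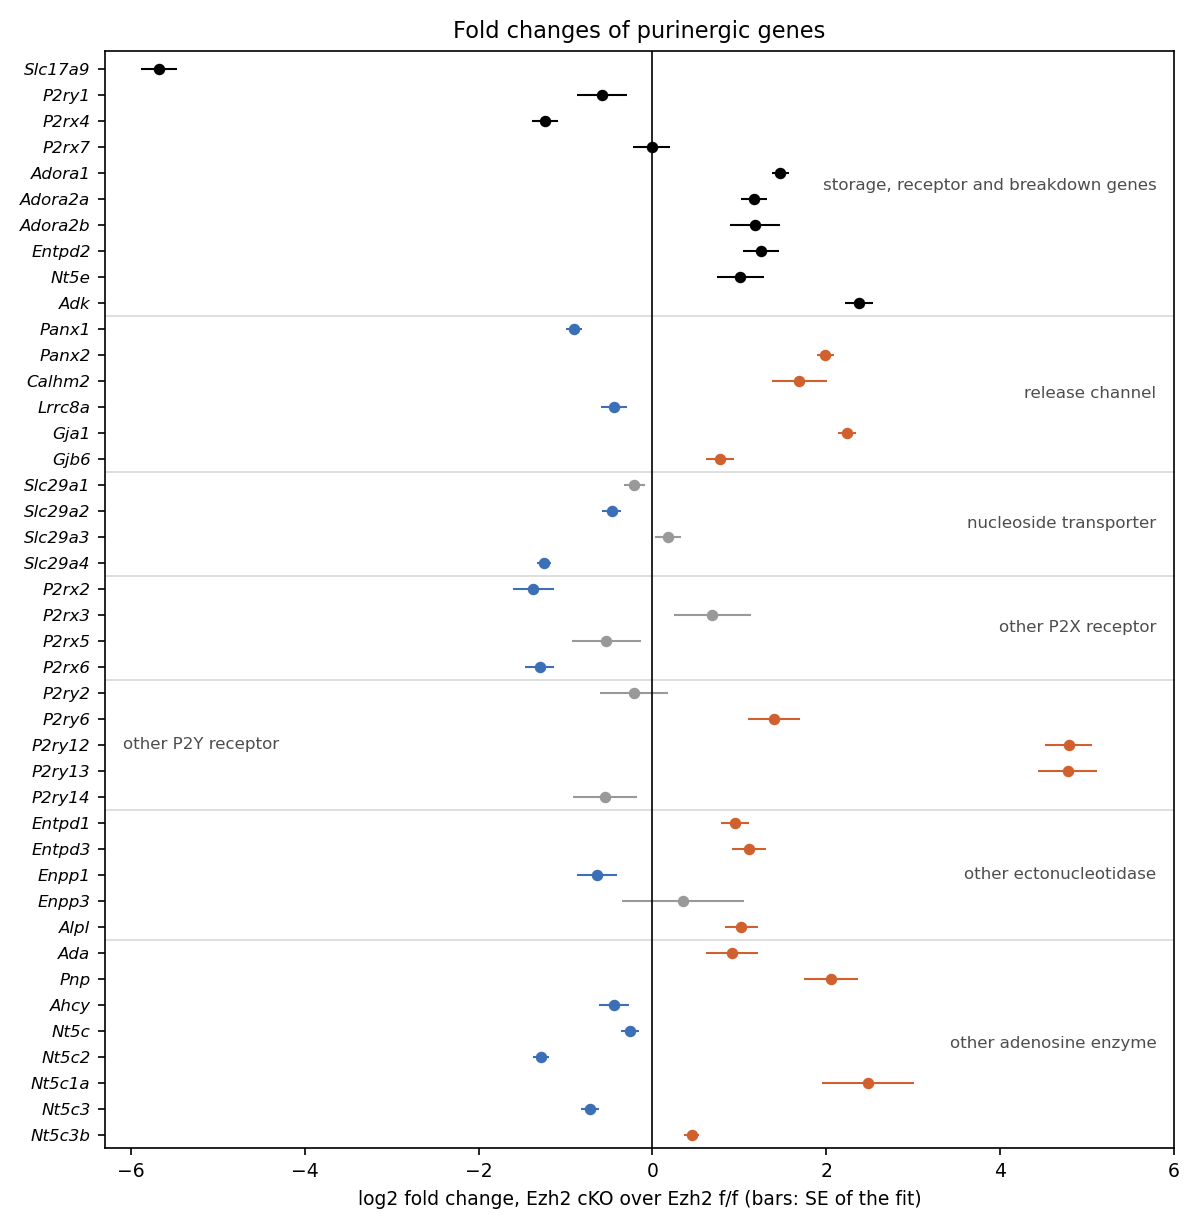
Log2 fold changes of Ezh2 cKO over Ezh2 f/f with SE bars from the edgeR fit, for the 10 genes (black, described without a test) and 32 tested genes of the wider lists, orange where called higher, blue where called lower and grey where not called; Entpd8, with no count in Ezh2 cKO, is left out. Slc17a9 at -5.68 lies furthest left and P2ry12 at 4.79 furthest right.

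Further marker lists differed between the groups too. The list of oligodendrocyte precursor genes was called higher in 8 of 8 genes, at 193 and 193 against 657 and 588 CPM in sum, with Olig1 at 43.1 and 41.2 against 181 and 149 CPM and Gpr17 at 7.32 and 12.2 against 173 and 156 CPM. That of oligodendrocytes was called higher in 7 of 7 tested genes, at 83.8 and 96.1 against 868 and 744 CPM, with Mbp at 37.5 and 43.4 against 478 and 399 CPM and Cnp at a log2 fold change of 2.93 ± 0.13 (SE). Endothelial genes summed to 316 and 301 against 390 and 338 CPM with 2 of 8 higher and 1 lower, mural genes to 214 and 227 against 370 and 326 CPM with 3 of 7 higher and 1 lower, and fibroblast genes to 328 and 294 against 280 and 251 CPM with 1 of 6 higher and 3 lower. None of the 10 purinergic genes is in a marker list, and the part of these shifts in their values was not tested.

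**Figure D5:**
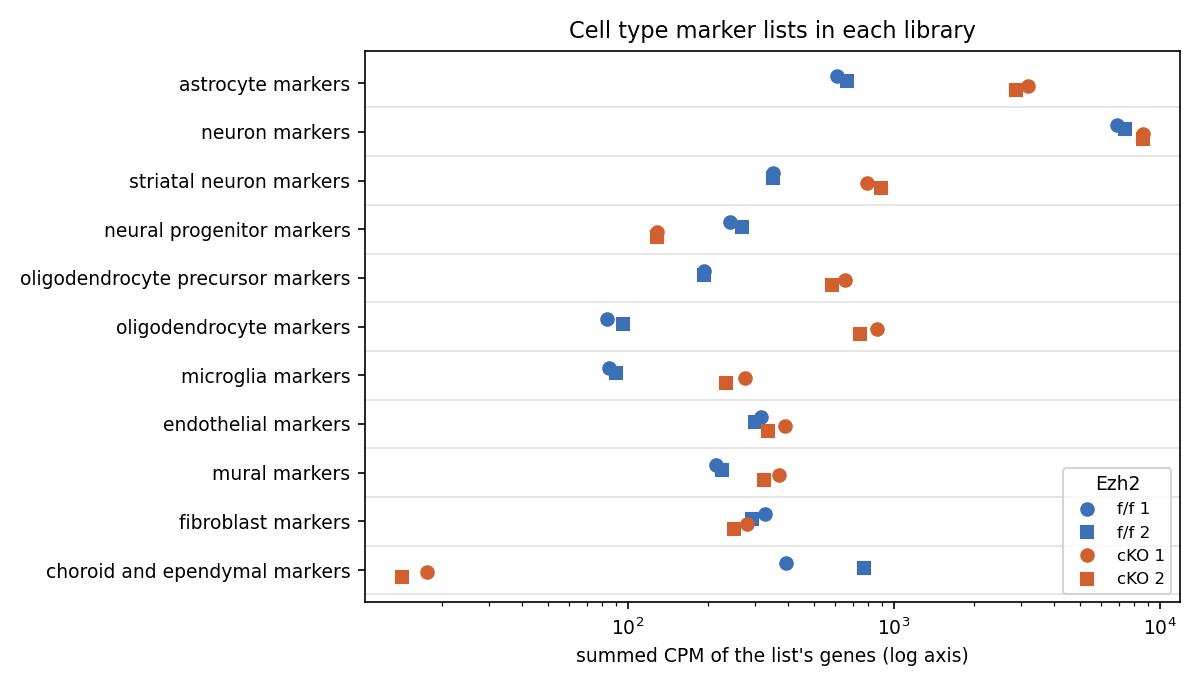
Summed CPM of each cell type marker list on a log axis, with 1 point per library, Ezh2 f/f in blue and Ezh2 cKO in orange. Astrocyte, oligodendrocyte and microglia lists lie higher in Ezh2 cKO, the choroid and ependymal list lies far lower, and the endothelial and fibroblast lists lie close together.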

How the data were processed

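The authors deposited raw counts of reads per gene and FPKM for 2 Ezh2 f/f and 2 Ezh2 cKO libraries, and columns of their own comparison (a mean signal, a ratio, its log2 value, p-values and a call), which were not used. The submitters' processing notes name TopHat2 2.0.12, Bowtie2 2.2.3, HTSeq 0.6.0 and mm9; whether strand was counted is not given in the sources used here, nor is the build of the deposited coordinates, which differ from GRCm38 and were not converted. For FPKM the authors divided counts by gene length and total counts, without TMM factors. All sample columns were used (0 left out).

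Groups came from the sample titles. Counts were filtered with filterByExpr in edgeR 4.0.16 (16793 genes kept), scaled by TMM (factors 0.967 to 1.040) and fitted with the quasi-likelihood test, group only, with Benjamini-Hochberg adjustment over all genes tested and a threshold of 0.05; with 2 libraries per group no permutation test of a single gene can reach it. A positive log2 fold change means a higher level in Ezh2 cKO. Alternatives were DESeq2 1.42.0, its size factors, total counts only, no filter, limma 3.58.1 on log2(FPKM + 1) and log2(FPKM + 0.1) with FPKM of at least 1 in 2 libraries, a replicate block, each library left out, and a threshold of 0.01. Tools were R 4.3.3 and Python 3.11.15 with numpy 2.4.6, pandas 2.3.3 and matplotlib 3.10.9, and the tests were tried on simulated counts first.

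The members and lists were chosen with earlier results of these data known. The wider purinergic lists were written from general knowledge of the pathway, without the values of their genes. Named were all members, the 4 genes of each wider list with the smallest p and the 2 most abundant markers of a list. The 3 genes nearest in profile to Slc17a9 and the nearest gene on each side of each member were named too. The genes overlapping a member lie outside this rule, as do Adora3, Lrrc8a, Enpp1, Ahcy, Nt5c, Ada, Aldh1l1, Sox9, Eomes, Kl and Ccdc153. All of these were picked once values were known. Panx3 and Calhm1 had no row, and Acp3 was found as Acpp.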

Additional observations from a re-analysis of the deposited data

How the results depend on the processing

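The 10 storage, receptor and breakdown genes kept their direction in every alternative that gave them a value, except P2rx7, which lay between -0.23 and 0.23 when single libraries were left out. Leaving out Ezh2 cKO replicate 2, the members called higher went from 6 to 4, with Adora2b and Nt5e lost, and P2ry1 and Nt5e had no FPKM value past the filter of limma. Of the 33 other purinergic genes, 7 were called lower with limma on log2(FPKM + 1) and 7 on log2(FPKM + 0.1) in place of 12, where 24 of them passed the FPKM filter; leaving out single libraries gave 8 to 10 lower and 14 to 16 higher. The genes lost were Lrrc8a, Ahcy, Nt5c, Enpp1 and Ada, each in at least 1 setting. DESeq2 called 13 higher and 9 lower. On the log2(FPKM + 1) scale Slc17a9 came to -3.23 and Adk to 1.55, since the pseudocount compresses low values. With the replicate block the counts were 14 and 12 for these genes and 5795 higher and 5599 lower over all genes, and it changed no call among the purinergic genes. The labels do not say that a number marks a shared litter or day. Over the genes tested, the difference between replicates 1 and 2 in Ezh2 f/f correlated at 0.13 with that in Ezh2 cKO. Scaling by total counts only moved the median log2 fold change of all genes from 0.015 to 0.099. Depth limits P2ry1, Adora2b and Nt5e most, which had at most 90 counts in a library and an SE of 0.27 to 0.29.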
